A study of Mus musculus with 8 samples.

Results

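The expression of 10 genes of the Hippo pathway was followed through 8 mouse skin RNA-seq libraries. The genes were the coactivators Yap1 and Wwtr1 (which encodes TAZ), the DNA-binding partner genes Tead1, Tead2, Tead3 and Tead4, the kinase genes Lats1 and Lats2, and Amotl2 and Ankrd1, both established targets of YAP and TAZ. They were chosen by gene symbol, and all 10 were found among the 24612 genes measured. Total RNA had been extracted with TRIzol from skin homogenates of male C57 BL/6 J mice, ordered at 4 weeks of age and treated from 6 weeks, with a label of 21 days. The Celastrol group (3 libraries, numbered 2, 3 and 5) received daily intraperitoneal celastrol, a plant triterpenoid, at 1 or 2 mg/kg. The Bleomycin group (3 libraries, numbered 2, 3 and 4) received 0.1 units of bleomycin under the skin, the drug used to model skin fibrosis. The PBS group (2 libraries, numbered 2 and 3) received 0.1 mL of phosphate-buffered saline under the skin. The labels do not state which celastrol dose each library had, nor whether the Celastrol mice were also given bleomycin. A difference between Celastrol and PBS may therefore also carry bleomycin exposure, and Celastrol and Bleomycin may or may not share that exposure. A difference between Celastrol and either other group also carries the route of injection. Nor do the labels say in words that each library is a separate mouse. The p-values therefore measure the spread between labelled libraries, which may be technical.

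The Hippo pathway is a kinase cascade in which the LATS kinases phosphorylate YAP and TAZ and keep them out of the nucleus. Unphosphorylated YAP and TAZ enter the nucleus, bind TEAD proteins and switch on genes of growth, adhesion and matrix. Among these targets are inhibitors of the pathway itself, such as Lats2 and Amotl2, which close a negative feedback loop. In skin the pathway is known for its part in epidermal growth and in the response of dermal fibroblasts to a stiff matrix. YAP and TAZ are controlled mainly through phosphorylation and location, which RNA levels do not report.

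TEAD proteins recognise the element GGAATG, and the longer form GGAATGT was searched as well. RefSeq promoter windows of 300 bases (250 before and 50 after the start site, build GRCm38.p6) were held for 8 of the 10 genes, in 12 windows, and were not held for Tead1 and Tead4. GGAATG or its reverse complement CATTCC was present in at least 1 window of 6 genes (Yap1, Wwtr1, Tead3, Lats2, Amotl2 and Ankrd1), and in none of the windows of Tead2 and Lats1. The same letters, on either strand, were in 14.7% of all 32851 promoter windows and in a window of 16.6% of genes. GGAATGT or ACATTCC, which contain the shorter element, were in 3.85% of windows. Windows of the feedback genes Lats2 and Amotl2 and of the target Ankrd1 are shown because these genes are the transcriptional readouts in the set. Lats2 has another window, chr14:57734369-57734668, which holds neither GGAATG nor CATTCC and is not shown. The Lats2 window shown lies inside the span of the gene (57689662 to 57758388), not at its 5′ end. Each window shown runs 5′ to 3′ along the gene's strand, with GGAATG or CATTCC in capitals.
Ankrd1, chr19:36119795-36120094, minus strand: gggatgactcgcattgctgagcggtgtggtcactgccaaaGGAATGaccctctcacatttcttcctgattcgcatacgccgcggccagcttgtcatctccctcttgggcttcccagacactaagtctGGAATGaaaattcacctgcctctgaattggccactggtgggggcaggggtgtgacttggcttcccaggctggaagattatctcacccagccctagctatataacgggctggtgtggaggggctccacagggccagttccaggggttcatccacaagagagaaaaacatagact
Amotl2, chr9:102717554-102717853, plus strand: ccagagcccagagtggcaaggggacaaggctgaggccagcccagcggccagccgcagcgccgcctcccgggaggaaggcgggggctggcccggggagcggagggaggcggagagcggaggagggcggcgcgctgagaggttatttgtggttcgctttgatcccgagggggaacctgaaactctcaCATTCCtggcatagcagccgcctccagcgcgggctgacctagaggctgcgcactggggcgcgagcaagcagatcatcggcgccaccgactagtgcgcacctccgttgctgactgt
Lats2, chr14:57746074-57746373, minus strand: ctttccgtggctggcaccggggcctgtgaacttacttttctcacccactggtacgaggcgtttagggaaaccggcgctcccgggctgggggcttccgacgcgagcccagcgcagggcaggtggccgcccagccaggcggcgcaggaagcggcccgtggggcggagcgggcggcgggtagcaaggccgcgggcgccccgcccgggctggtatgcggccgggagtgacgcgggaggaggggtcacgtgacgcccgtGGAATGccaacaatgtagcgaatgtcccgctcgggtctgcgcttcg
In the Ankrd1 window the elements begin 210 and 123 bases before the start site. The Amotl2 element begins 65 bases before it and is part of the longer GGAATGT form on the opposite strand. The element in the Lats2 window shown lies just past the start site of that window. A match of letters describes the sequence and was not a measurement of TEAD binding.

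Values are the authors' deposited normalised values, which are gene counts scaled by a size factor per library, on a linear scale. The libraries held 14931717 to 37053366 estimated reads, and each library's values summed to 22917554 to 26381997. Celastrol 2 stood apart from the other libraries on the first principal component (237.5, with the others between -57.3 and -3.63, 32.7% of variance). Bleomycin 2 and PBS 2 stood apart in a different way: genes with a GC content above 52.83% (the upper 25%) lay 0.53 and 0.51 log2 units above their 8-library mean there (median), against -0.23 to 0.10 in the other 6 libraries. All 8 basal keratinocyte genes, all 6 suprabasal genes and all 8 fibroblast genes had a value above 0 in every library. So did all 15 skeletal muscle genes, which are markers of muscle. A value above 0 does not by itself identify the tissue. The samples are bulk tissue, so fewer cells of a type and less RNA per cell cannot be told apart.

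Across the 3 comparisons, Ankrd1 was the member that changed past the threshold, and it did so in Bleomycin against PBS. Changes are log2 differences of the value plus 1, fitted with limma over all 23185 genes tested, and a gene was called at an adjusted p under 0.05 (Benjamini-Hochberg over those genes). In Celastrol against Bleomycin, 0 of 10 members were called, against 0% of all genes. In that comparison limma gave 898 genes, 3.87%, an unadjusted p under 0.05, and none of the members was among them. In Celastrol against PBS, 0 of 10 members were called, against 1.37% of all genes. Of the members, limma gave Ankrd1 alone an unadjusted p under 0.05 there, as it did 12% of all genes. In Bleomycin against PBS, 1 of 10 members was called, against 0.677% of all genes and 0.453% called higher. At an unadjusted p under 0.05 limma also gave 1 member there, against 6.82% of all genes. These shares of all genes are also the background for the counts in the gene lists below. All 10 members passed the filter on low values. The median log2 change of the members was -0.04 in Celastrol against Bleomycin, -0.20 in Celastrol against PBS and -0.13 in Bleomycin against PBS. The corresponding medians of all genes tested were -0.04, -0.07 and -0.00.

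**Figure D1:**
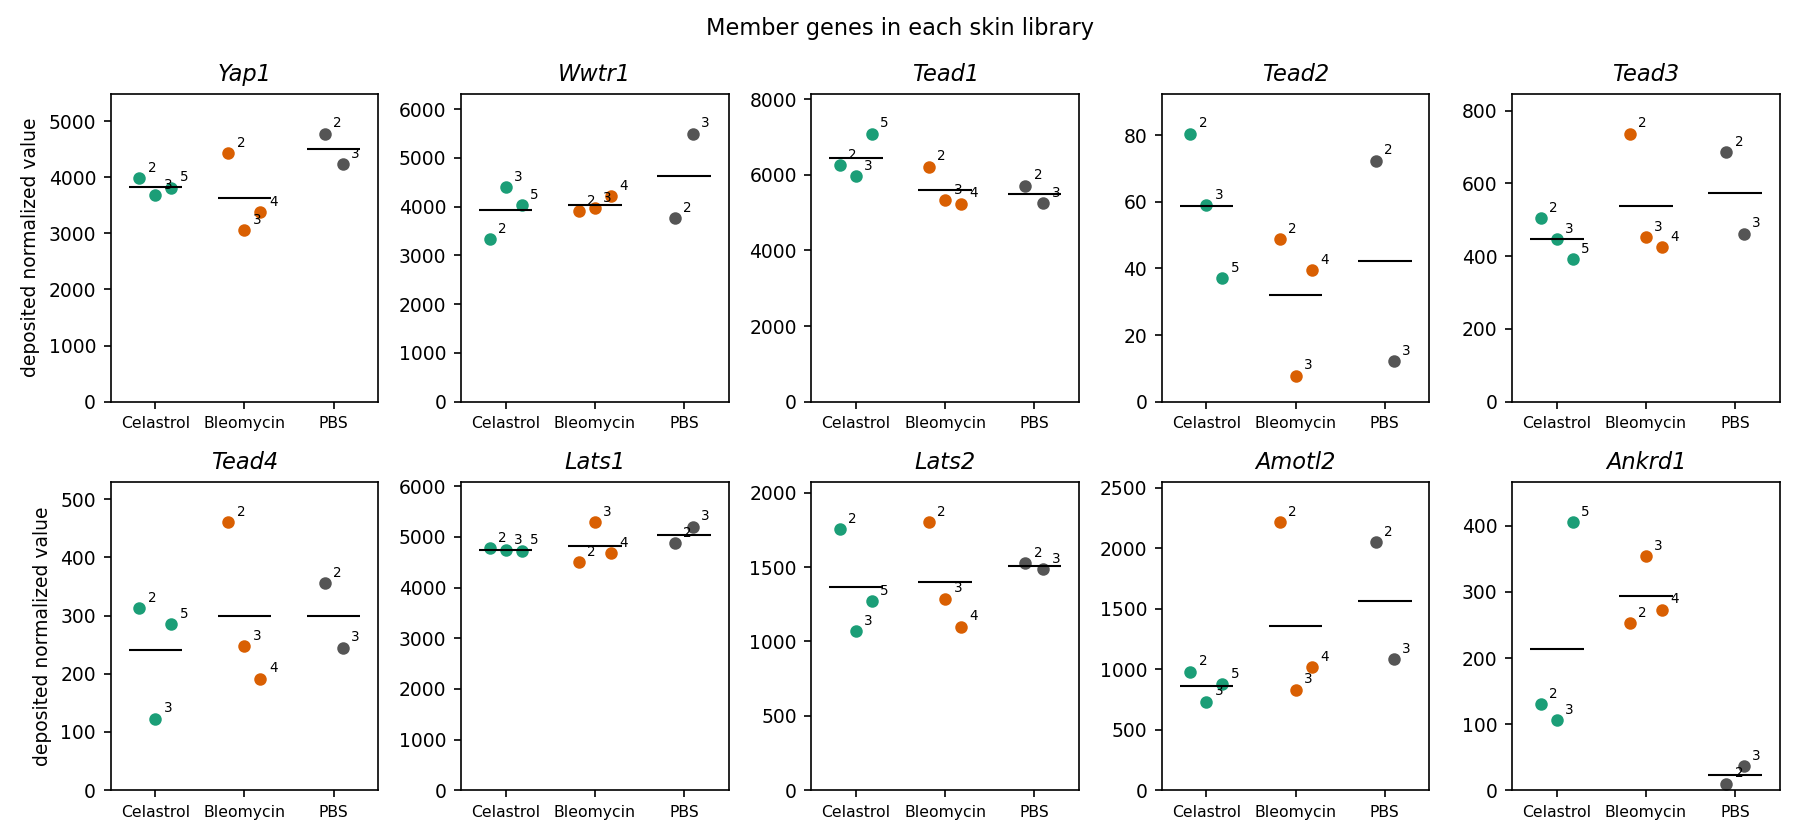
Deposited normalised value (vertical axis, linear and starting at 0 in each panel) of each of the 10 genes in the 3 Celastrol, 3 Bleomycin and 2 PBS libraries, with numbered points for libraries and lines for group means. Ankrd1 lies between 106 and 406 in the Celastrol and Bleomycin libraries and at 9.74 and 36.4 in the PBS libraries, while the groups lie close together for Lats1.

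The coactivator genes varied little. Yap1, on chromosome 9 (7931999 to 8004596, minus strand, GRCm38), had values of 3989, 3678 and 3814 in Celastrol, 4429, 3060 and 3378 in Bleomycin, and 4777 and 4237 in PBS. The Celastrol libraries lay within the Bleomycin range and below both PBS libraries, and Bleomycin overlapped PBS. The log2 change of Yap1 was -0.23 ± 0.18 (SE) in Celastrol against PBS and -0.33 ± 0.18 in Bleomycin against PBS (limma adjusted p = 0.680 and 0.957).

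Wwtr1, on chromosome 3 (57455649 to 57575910, minus strand), had values of 3329, 4400 and 4035 in Celastrol, 3905, 3970 and 4222 in Bleomycin, and 3762 and 5495 in PBS. All 3 groups overlapped, with PBS 3 the highest library and Celastrol 2 the lowest. Its log2 change was -0.05 ± 0.18 in Celastrol against Bleomycin, with a 95% confidence interval from -0.44 to 0.34.

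The balance of the coactivators was also compared. The ratio of Wwtr1 to Yap1 per kilobase of exon was 1.62, 2.32 and 2.05 in Celastrol, 1.71, 2.51 and 2.42 in Bleomycin, and 1.53 and 2.51 in PBS. Wwtr1 thus exceeded Yap1 per kilobase in every library, and in every group the library numbered 2 had the lowest ratio. With the length of the longest transcript in place of all exons, the ratio lay below 1 in those 3 libraries (0.938, 0.991 and 0.886). Differences in the mean log2 ratio were -0.15 for Celastrol against Bleomycin, 0.01 for Celastrol against PBS and 0.16 for Bleomycin against PBS. Exact two-sided permutation tests gave p = 0.5, 1 and 0.6, where the smallest p that 3 against 3 libraries allow is 0.1 and that 3 against 2 allow is 0.2.

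The TEAD genes encode the DNA-binding part of the complex and were led by Tead1. Tead1, on chromosome 7 (112679318 to 112906807, plus strand), had values of 6262, 5969 and 7090 in Celastrol, 6221, 5336 and 5242 in Bleomycin, and 5716 and 5248 in PBS. All Celastrol libraries lay above both PBS libraries, while Bleomycin overlapped both other groups. The log2 change was 0.20 ± 0.14 in Celastrol against Bleomycin and 0.23 ± 0.16 in Celastrol against PBS (limma adjusted p = 0.975 and 0.628).

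Tead3, on chromosome 17 (28331671 to 28350817, minus strand), had values of 506, 447 and 391 in Celastrol, 737, 452 and 424 in Bleomycin, and 687 and 462 in PBS. Tead4, on chromosome 6 (128224288 to 128300823, minus strand), had values of 313, 123 and 285 in Celastrol, 461, 247 and 192 in Bleomycin, and 355 and 245 in PBS. Bleomycin 2 and PBS 2 were the highest libraries for both genes, and every group overlapped the others. Tead4 in Celastrol 3 was the lowest of its 8 values, and rested on about 73 reads.

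Tead2, on chromosome 7 (45215753 to 45233644, plus strand), was the least abundant member. Its values were 80.4, 59.0 and 37.0 in Celastrol, 48.9, 7.84 and 39.4 in Bleomycin, and 72.3 and 12.2 in PBS. The low values of Bleomycin 3 and PBS 3 rested on about 6 and 11 reads. The log2 change of Tead2 was 1.13 ± 0.93 in Celastrol against Bleomycin, with a 95% confidence interval from -0.93 to 3.18. Without Bleomycin 3 the same change was 0.35.

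**Figure D2:**
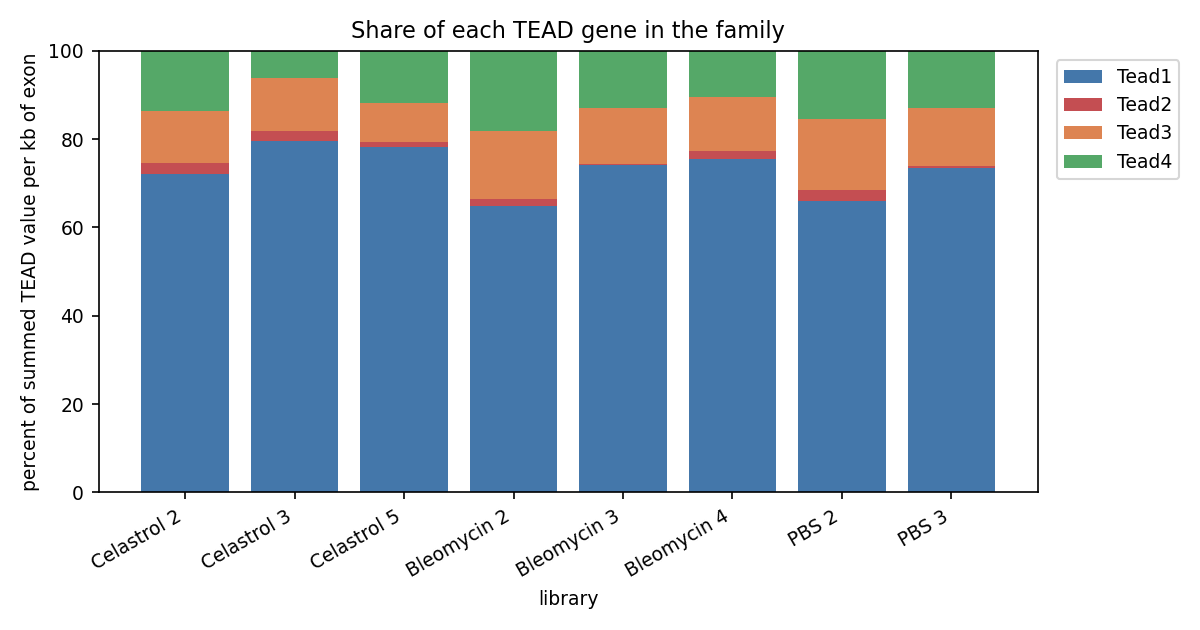
Percent of the summed TEAD value per kilobase of exon (vertical axis) taken by each TEAD gene, in the 3 Celastrol, 3 Bleomycin and 2 PBS libraries; each stack sums to the whole family. Tead1 holds 64.9% to 79.5%, with its lowest shares in Bleomycin 2 and PBS 2, and Tead2 is a thin band of 0.309% to 2.62%.

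As a share of the TEAD family per kilobase of exon, Tead1 held 72.0%, 79.5% and 78.2% in Celastrol, 64.9%, 74.1% and 75.6% in Bleomycin, and 66.1% and 73.5% in PBS. Tead3 held 8.73% to 16.1% and Tead4 6.19% to 18.1% over the 8 libraries. Bleomycin 2 and PBS 2 had the lowest Tead1 shares and the highest Tead3 and Tead4 shares. Per kilobase of the longest transcript, the ranges were 62.3% to 76.6% for Tead1, 12.2% to 21.9% for Tead3 and 5.09% to 14.9% for Tead4. GC content of the longest transcript was 46.5% for Tead1, 57.9% for Tead2, 58.1% for Tead3 and 58.1% for Tead4, and the last 3 stand at or above percentile 93.4 of the genes tested.

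The LATS kinases phosphorylate YAP and TAZ. Lats1, on chromosome 10 (7681214 to 7716460, plus strand), had values of 4773, 4732 and 4727 in Celastrol, 4504, 5290 and 4674 in Bleomycin, and 4874 and 5205 in PBS. Its highest value was 1.17 times its lowest, and its SD over the 8 libraries, 0.079 log2 units, was smaller than that of all but 0.203% of genes tested. All Celastrol libraries lay below both PBS libraries by a small margin, with a log2 change of -0.09 ± 0.15 and a 95% confidence interval from -0.42 to 0.25.

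Lats2, the kinase that is itself a YAP and TAZ target, lies on chromosome 14 (57689662 to 57758388, minus strand). Its values were 1755, 1070 and 1273 in Celastrol, 1802, 1289 and 1100 in Bleomycin, and 1529 and 1488 in PBS. Both PBS libraries lay inside the range of the other groups. The log2 change was -0.03 ± 0.23 in Celastrol against Bleomycin, -0.17 ± 0.26 in Celastrol against PBS and -0.14 ± 0.26 in Bleomycin against PBS. Differences in the mean log2 ratio of Lats2 to Lats1 were -0.01, -0.09 and -0.08 in the same comparisons, with exact two-sided permutation p = 1, 0.8 and 1.

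Amotl2 encodes a junction protein that holds YAP in the cytoplasm and is induced by YAP and TAZ. It lies on chromosome 9 (102716672 to 102733418, plus strand), and its values were 980, 731 and 873 in Celastrol, 2215, 831 and 1018 in Bleomycin, and 2047 and 1086 in PBS. All Celastrol libraries lay below both PBS libraries, while Bleomycin overlapped both groups, and Bleomycin 2 and PBS 2 stood about as far above the rest as each other. The log2 change was -0.80 ± 0.40 in Celastrol against PBS and -0.53 ± 0.35 in Celastrol against Bleomycin (limma adjusted p = 0.472 and 0.975). Without PBS 2 the change against PBS was -0.34, and without Bleomycin 2 the change against Bleomycin was -0.11.

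Amotl2 transcripts have a GC content of 56.7%, at percentile 90.0 of the genes tested, and the libraries in which it was high were those in which GC-rich genes were high. A correction of each library for GC content was added after the data had been seen. It subtracts the library's trend with GC content, so genes of similar GC content shift by similar amounts. Such a shift does not show why a gene was high, which was not tested. After the correction, the deviation of Amotl2 from its mean was 0.44 in Bleomycin 2 and 0.32 in PBS 2, against 0.97 and 0.86 as deposited. For Tead3 the corrected deviations were -0.07 and -0.19, against 0.56 and 0.45, and for Tead4 they were 0.20 and -0.20, against 0.82 and 0.45. The corrected log2 change of Amotl2 was -0.53 in Celastrol against PBS and -0.36 in Celastrol against Bleomycin.

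**Figure D3:**
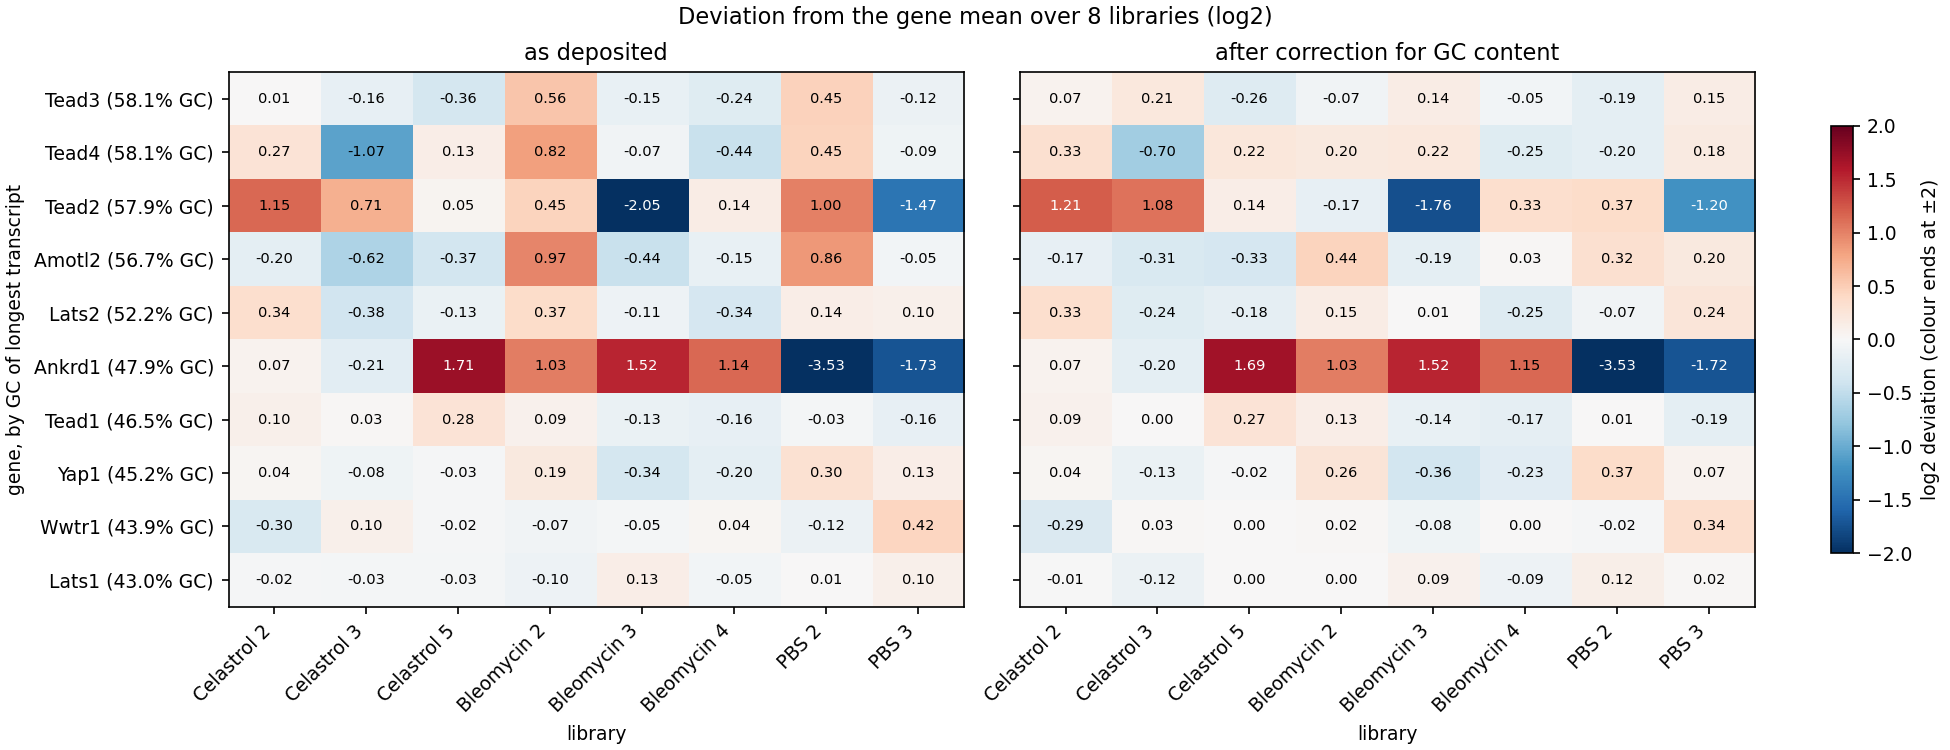
Log2 deviation of each gene from its own mean over the 8 libraries, as deposited (left) and after correction for GC content (right), with genes from highest to lowest GC content down the page and libraries across. In the left panel Amotl2, Tead3 and Tead4 are high in Bleomycin 2 and PBS 2, by 0.45 to 0.97, and in the right panel these cells range from -0.20 to 0.44, while Ankrd1 looks alike in both.

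Ankrd1 encodes a stress-responsive ankyrin-repeat protein of striated muscle that also acts as a nuclear cofactor, and it is a widely used readout of YAP and TAZ activity. It lies on chromosome 19 (36111961 to 36120099, minus strand), and its promoter window carries both GGAATG elements shown. Its values were 130, 106 and 406 in Celastrol, 253, 354 and 273 in Bleomycin, and 9.74 and 36.4 in PBS. In estimated reads these are about 79, 63 and 570 in Celastrol, 367, 271 and 372 in Bleomycin, and 14 and 33 in PBS. Every Celastrol and every Bleomycin library lay above both PBS libraries, and the Celastrol and Bleomycin ranges overlapped, with Celastrol 5 the highest of all.

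Ankrd1 averaged 293 ± 53.6 in Bleomycin (SD, n = 3) and 23.1 ± 18.9 in PBS (SD, n = 2). The log2 change was 3.86 ± 0.69 (95% confidence interval 2.33 to 5.39, limma adjusted p = 0.0351), 14.5-fold on the scale of the value plus 1. This was rank 122 of all genes tested by p. In Celastrol it averaged 214 ± 166 (SD, n = 3), and the change against PBS was 3.16 ± 0.69 (interval 1.63 to 4.68), which did not pass the threshold (limma adjusted p = 0.0582). Between Celastrol and Bleomycin the change was -0.71 ± 0.62 (interval -2.07 to 0.66, limma adjusted p = 0.975). Both comparisons against PBS share the same 2 PBS libraries.

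The call of Ankrd1 in Bleomycin against PBS was lost when any library of either group was left out. The limma adjusted p was 0.209 without PBS 2 (log2 change 2.96), 0.0842 without PBS 3 (4.76), 0.0507 without Bleomycin 2 (3.96), 0.140 without Bleomycin 3 (3.72) and 0.182 without Bleomycin 4 (3.90). Without Celastrol 2, the library that stands apart, the limma adjusted p was 0.0494. In Celastrol against PBS, the log2 change was 3.38 without Celastrol 2 (limma adjusted p = 0.0920) and 2.56 without Celastrol 5 (limma adjusted p = 0.161). Without PBS 2 it was 2.26 and without PBS 3 it was 4.06 (limma adjusted p = 0.322 and 0.0785). In Celastrol against Bleomycin it was -0.34 without Celastrol 3 and -1.30 without Celastrol 5.

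**Figure D4:**
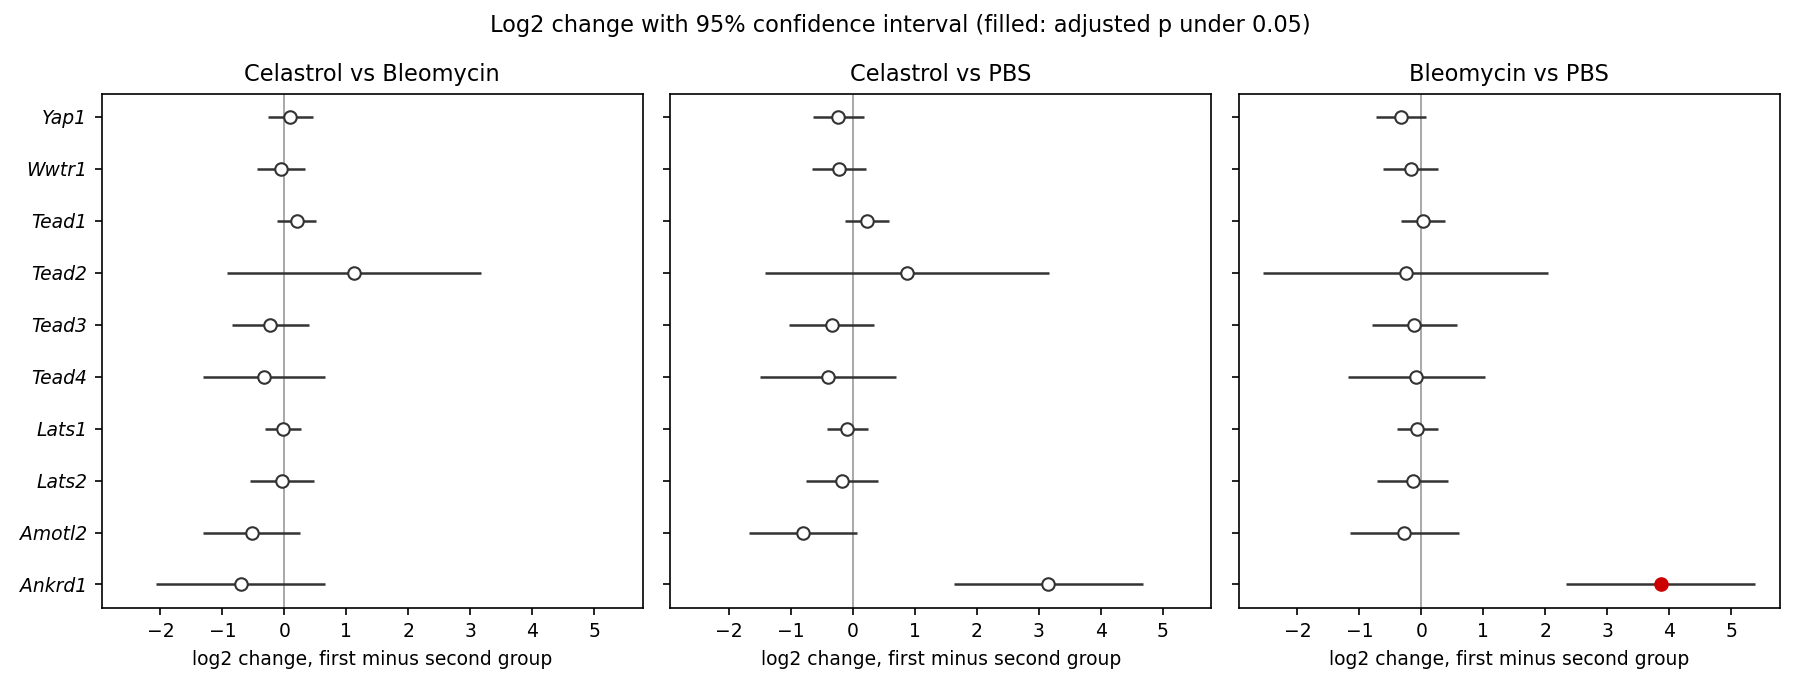
Log2 change (horizontal axis) of the 10 genes in Celastrol against Bleomycin, Celastrol against PBS and Bleomycin against PBS, as points with 95% confidence intervals from limma; a filled point marks an adjusted p under 0.05. The filled point is Ankrd1 in Bleomycin against PBS (3.86), and the widest interval in each panel belongs to Tead2.

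The summed share of skeletal muscle genes, like Ankrd1, was lowest in PBS. The 15 skeletal muscle genes made up 6.46%, 4.95% and 7.29% of all values in Celastrol, 4.63%, 3.24% and 3.67% in Bleomycin, and 2.37% and 2.30% in PBS. Ttn, the gene of the giant sarcomere protein titin, made up 77.5% to 84.6% of this sum, and the other 14 genes made up 0.873% to 1.17% of all values in Celastrol, 0.500% to 0.887% in Bleomycin, and 0.533% and 0.401% in PBS, so that neighbouring groups overlapped without Ttn. Limma called 7 of them higher in Celastrol against PBS, from Myh4 (1.26 ± 0.21, adjusted p = 0.0176) to Tnnt3 (2.29 ± 0.41, adjusted p = 0.0250), with Tnni2, Myh1, Tnnc2, Ttn and Actn3 between. Of these 7, 0 remained called without Celastrol 5, 1 without PBS 2, 1 without PBS 3, 4 without Celastrol 2, 4 without Bleomycin 4, 6 without Celastrol 3 and 7 without either other library. In Bleomycin against PBS limma called 1 of them, the myosin heavy chain gene Myh1 (1.31 ± 0.25, adjusted p = 0.0499), a call that was lost without any Bleomycin or PBS library or without Celastrol 5. In Celastrol against Bleomycin limma called 0 of them by adjusted p, and 11 had an unadjusted p under 0.05, against 3.87% of all genes. The median log2 change of the list was 1.03 in Celastrol against Bleomycin (15 of 15 above 0), 1.43 in Celastrol against PBS (15 of 15) and 0.48 in Bleomycin against PBS (13 of 15, lowest -0.48), against -0.04, -0.07 and -0.00 for all genes tested. Ankrd1 itself had -0.71 in the first of these comparisons.

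Of 12 genes of muscle stress and regeneration, Ankrd23, a close relative of Ankrd1 in muscle, had the smallest p in each comparison. Its values were 2256, 2858 and 3012 in Celastrol, 2023, 1453 and 1190 in Bleomycin, and 679 and 557 in PBS. The groups did not overlap, and the log2 change was 2.13 ± 0.25 in Celastrol against PBS and 1.30 ± 0.25 in Bleomycin against PBS (limma adjusted p = 0.00483 and 0.0471). The second of these calls was lost without any one of the 8 libraries (limma adjusted p 0.0583 to 0.374). Nrap, an actin-anchoring protein of striated muscle, was called higher in Celastrol against PBS (1.32 ± 0.26, limma adjusted p = 0.0367), and not without Celastrol 2, Celastrol 5, Bleomycin 4 or PBS 3 (0.93 to 1.32). Limma called 0 of the 12 in Celastrol against Bleomycin, and 1 had an unadjusted p under 0.05. The list's median log2 change was 0.07 in Celastrol against Bleomycin (6 above and 6 below 0), 0.70 in Celastrol against PBS (10 above, 2 below) and 0.91 in Bleomycin against PBS (12 of 12 above, 5 at an unadjusted p under 0.05).

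The muscle genes differed among themselves in how closely they resembled Ankrd1. Ankrd23 was higher in every Celastrol library than in every Bleomycin library, while the mean of Ankrd1 was higher in Bleomycin. Myh3 and Myog, chosen after their values were seen, shared with Ankrd1 a highest value in Celastrol 5. This was not particular to them. Ankrd23 and other muscle genes, such as Ttn, Ckm and Myl1, were also highest in Celastrol 5, though not all were (Myh1 was highest in Celastrol 2). Myh3, the embryonic myosin heavy chain gene, was listed at 0 in Celastrol 2 and had 47.5 and 779 in Celastrol 3 and Celastrol 5, against 206, 108 and 146 in Bleomycin and 4.90 and 0 in PBS. Myog, the myogenin gene of muscle differentiation, was listed at 0 in Celastrol 2 and had 25.3 and 87.5 in the other Celastrol libraries, against 45.4, 51.0 and 39.7 in Bleomycin and 11.1 and 5.52 in PBS. Both had Bleomycin libraries above both PBS libraries and within the Celastrol range, and neither was called (limma adjusted p = 0.470 for Myh3 and 1 for Myog in Bleomycin against PBS). Other genes of the list went otherwise. Myod1 was also highest in Celastrol 5 (72.6), but its Bleomycin values (44.8, 17.0 and 13.2) overlapped those of PBS (35.5 and 0). Of the 12 genes, 6 had every Bleomycin library above both PBS libraries, against 12% of all genes. Per 100000 of summed skeletal muscle values, a measure chosen after the values were seen, Ankrd1 stood at 8.08, 8.52 and 21.1 in Celastrol, 23.8, 45.3 and 32.1 in Bleomycin, and 1.76 and 6.62 in PBS. With Ttn left out of the sum it stood at 47.4, 48.3 and 131 in Celastrol, 124, 294 and 209 in Bleomycin, and 7.81 and 37.9 in PBS. PBS lay below the other groups on both measures, and the separation of Celastrol from Bleomycin was lost without Ttn. The part of muscle content in the change of Ankrd1 was not tested further.

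**Figure D5:**
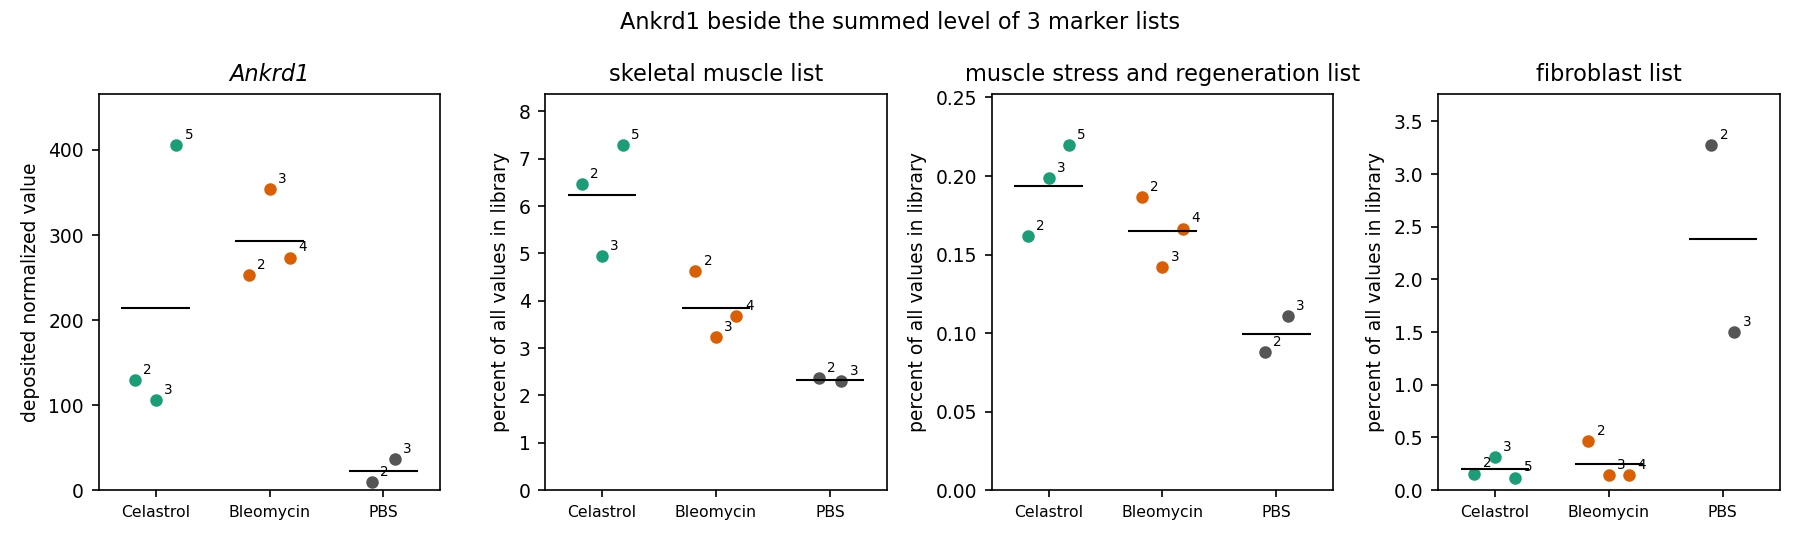
Deposited normalised value of Ankrd1 (first panel) and the summed value of 3 marker lists as a percent of all values in the library (other panels), with numbered points for libraries and lines for group means. PBS is lowest for Ankrd1 and both muscle lists, Celastrol has the highest skeletal muscle share (4.95% to 7.29%), and the fibroblast share is highest in PBS (3.27% and 1.50%).

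By pattern over the 8 libraries, the genes nearest to Ankrd1 were Bcl2a1d, Ccr1, Tlr13, Clec4n and Apln, with a root-mean-square difference of log2 deviations of 0.67 to 0.80 among 13381 candidates. Ccr1, for example, had values of 666, 1265 and 1225 in Celastrol, 631, 1235 and 1102 in Bleomycin, and 89.7 and 146 in PBS. All 5 were lower in both PBS libraries than in every Celastrol and Bleomycin library, and none of them was in the muscle lists. They were chosen for likeness to the pattern of Ankrd1, so their low PBS values follow from the choice. Bcl2a1d belongs to a family of near-identical copies, so its reads may be shared with them. Of 6 macrophage genes, limma called 0 in each comparison (unadjusted p under 0.05 for 0, 2 and 2 of them). Log2 changes lay above 0 for 2 and below 0 for 4 of them in Celastrol against Bleomycin. In Celastrol against PBS 4 lay above and 2 below 0, and in Bleomycin against PBS 5 above and 1 below. The list's median log2 change was -0.12, 0.52 and 0.39 in these comparisons. In Celastrol against PBS, Cd68 had the smallest adjusted p (1.39 ± 0.31, limma adjusted p = 0.0625). Csf1r, the receptor gene of a macrophage growth factor, had -0.76 ± 0.33 there (limma adjusted p = 0.399). The macrophage genes made up 0.0523% to 0.0794% of values in Celastrol, 0.0778% to 0.0960% in Bleomycin, and 0.0737% and 0.0591% in PBS.

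The genes nearest to Amotl2 lay much closer, at 0.11 to 0.14, and were Mark2, Eml3, Sidt2, Zc3h7b and Ahnak2. Mark2 had values of 1039, 732 and 1054 in Celastrol, 2251, 928 and 1021 in Bleomycin, and 2449 and 1056 in PBS. Like Amotl2, it was high in Bleomycin 2 and PBS 2. The genes nearest to Tead2 were Wdr46, Junos, Med9, Pgpep1 and Inafm1, at 0.39 to 0.47. Like Tead2, each of them had its lowest values in Bleomycin 3 and PBS 3. These likenesses to Amotl2 and Tead2 follow from the choice of genes by pattern. Junos is antisense to Jun, and without stated use of strand its reads cannot be told from those of Jun.

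The order of the members by level was taken from values per kilobase of exon, averaged over the 8 libraries. Wwtr1 led with 866, followed by Lats1 with 664, Tead1 with 434, Yap1 with 424, Lats2 with 203, Amotl2 with 194, Tead4 with 77.2, Tead3 with 76.5, Ankrd1 with 67.9 and Tead2 with 9.32. Between neighbours in this order, the ranges over libraries separated Lats1 (lowest 617) from Tead1 (highest 522), and Yap1 (lowest 331) from Lats2 (highest 259). The ranges of every other pair of neighbours overlapped. Per kilobase of the longest transcript, Yap1 moved to rank 2, and Tead3 (149) and Ankrd1 (97.0) stood above Tead4 (90.3). Amotl2 (276) then stood above Lats2 (272), and the ranges of Lats1 (lowest 625) and Tead1 (highest 712) overlapped. Wwtr1 and Tead2 kept their places, and the order between them rests on which length is used. Spread over the libraries followed another order, with an SD in log2 units of 1.82 for Ankrd1, 1.16 for Tead2, 0.59 for Amotl2, 0.58 for Tead4 and 0.079 to 0.33 for the other 6.

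Counting members whose groups did not overlap, 0 of 10 were separated in Celastrol against Bleomycin, against 8.73% of all genes. In Celastrol against PBS, 5 of 10 were separated, against 26.9% of all genes. Tead1 and Ankrd1 were higher, against 13.2% of all genes, and Yap1, Lats1 and Amotl2 were lower, against 13.7%. In Bleomycin against PBS, 1 of 10 was separated, against 23.6% of all genes and 12% separated as higher.

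Of 11 other Hippo kinases and adaptors, limma called 0 in each comparison, and their log2 changes ran from -0.25 to 0.28 in Celastrol against Bleomycin, from -0.41 to 0.30 in Celastrol against PBS and from -0.16 to 0.16 in Bleomycin against PBS. The smallest p belonged to Stk38l, an NDR kinase gene, in the first (0.28 ± 0.21), to Stk4, which encodes MST1, in the second (0.30 ± 0.20) and to Mob1b, a LATS coactivator gene, in the third (0.14 ± 0.16). Limma also gave 0 of the 11 an unadjusted p under 0.05 in each of these comparisons.

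Of 12 junction and upstream regulators, limma also called 0 in each comparison, with an unadjusted p under 0.05 for 0 in Celastrol against Bleomycin, 2 in Celastrol against PBS and 1 in Bleomycin against PBS. The smallest adjusted p belonged to Fat4, an atypical cadherin gene whose Drosophila relative feeds into the pathway. Fat4 had values of 688, 1164 and 607 in Celastrol, 1016, 740 and 628 in Bleomycin, and 2024 and 1846 in PBS. All Celastrol and Bleomycin libraries lay below both PBS libraries, with log2 changes of -1.30 ± 0.30 and -1.31 ± 0.30 (limma adjusted p = 0.0753 and 0.101). In Celastrol against PBS the limma adjusted p of Fat4 ran from 0.0277 (without Celastrol 3) to 0.327 (without PBS 2) over the alternatives, and it passed the threshold in 3 of them, the others being the GC correction (0.0481) and the fit without Bleomycin 2 (0.0467). The limma adjusted p in Bleomycin against PBS ran from 0.00673 with library weights, where alone it passed, to 0.450 without PBS 3.

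Amot, a relative of Amotl2 that likewise binds YAP, had values of 1786, 1051 and 1387 in Celastrol, 1344, 938 and 894 in Bleomycin, and 825 and 786 in PBS. Its groups of Celastrol and PBS did not overlap, but the log2 change of 0.77 ± 0.26 was not called (limma adjusted p = 0.253), and Amotl2 pointed the other way. Wtip, a LIM-domain gene, was listed at 0 in Celastrol 2 and PBS 3. Limma called 0 of the 3 TEAD cofactor genes measured (Vgll2, Vgll3 and Vgll4) in each comparison, with 0 at an unadjusted p under 0.05, and Vgll4, a repressor of TEAD activity, had log2 changes of -0.41 ± 0.20 in Celastrol against Bleomycin, -0.18 ± 0.23 in Celastrol against PBS and 0.23 ± 0.23 in Bleomycin against PBS. Vgll3 had 0.20 ± 0.14, -0.12 ± 0.16 and -0.32 ± 0.16 in the same comparisons, and Vgll2 was listed at 0 in Bleomycin 3 and did not exceed 46.1 in any library.

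Of 18 other targets of YAP and TAZ measured, limma called 0 in Celastrol against Bleomycin, 2 lower and 0 higher in Celastrol against PBS, and 1 lower and 0 higher in Bleomycin against PBS. An unadjusted p under 0.05 was given to 2, 6 and 3 of them, against 3.87%, 12% and 6.82% of all genes. Of all genes, limma called 0%, 1.37% and 0.677% in these comparisons, in either direction. The median log2 change of these 18 was -0.18, -0.62 and -0.16 in the same comparisons, against -0.04, -0.07 and -0.00 for all genes tested. The list was chosen with results of these data known, so its direction is a description.

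Ccn1 and Ccn2, matricellular protein genes that are the other common readouts, were not called in any comparison. Ccn1 had values of 125, 666 and 318 in Celastrol, 892, 424 and 403 in Bleomycin, and 289 and 343 in PBS. All Bleomycin libraries lay above both PBS libraries, and Celastrol, with its wide range, overlapped both groups. Its log2 change was -0.84 ± 0.53 in Celastrol against Bleomycin, -0.08 ± 0.60 in Celastrol against PBS and 0.76 ± 0.60 in Bleomycin against PBS (limma adjusted p = 0.975, 0.974 and 1). The change in Celastrol against Bleomycin was -0.21 without Celastrol 2, -1.42 without Celastrol 3 and -0.47 without Bleomycin 2, and in Bleomycin against PBS it was 0.39 without Bleomycin 2.

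Ccn2 had values of 1676, 1243 and 844 in Celastrol, 1813, 1088 and 1201 in Bleomycin, and 799 and 1280 in PBS, and every group overlapped the others. Its log2 change was -0.14 ± 0.30, 0.25 ± 0.33 and 0.40 ± 0.33 in the same comparisons (limma adjusted p = 0.991, 0.821 and 1). Fjx1 is a relative of the Drosophila Golgi kinase gene four-jointed. It was listed at 0 in Celastrol 2 and Celastrol 3, the shallowest libraries, and had 7.83 in Celastrol 5. Its values were 63.4, 24.8 and 22.8 in Bleomycin and 26.4 and 27.6 in PBS. Its limma adjusted p was 0.975, 0.256 and 1.

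The called targets were Igfbp3, an insulin-like growth factor binding protein gene, and Ccdc80, a matrix protein gene. Igfbp3 had values of 1364, 1544 and 1444 in Celastrol, 3109, 1518 and 1248 in Bleomycin, and 6548 and 5153 in PBS, and fell by 2.00 ± 0.32 on the log2 scale in Celastrol against PBS (limma adjusted p = 0.0172), a call lost without Celastrol 2, Celastrol 5, PBS 2 or PBS 3 (adjusted p 0.0601 to 0.115). It fell by 1.69 ± 0.32 in Bleomycin against PBS (limma adjusted p = 0.0493). The second call was lost without any one library other than Bleomycin 2, and without Bleomycin 2 the fall was 2.08 (limma adjusted p = 0.00240). Ccdc80 had values of 1656, 3636 and 2882 in Celastrol, 3889, 3333 and 4380 in Bleomycin, and 10647 and 9227 in PBS, and fell by 1.94 ± 0.29 in Celastrol against PBS (limma adjusted p = 0.0125), a call lost without Celastrol 5, PBS 2 or PBS 3 (adjusted p 0.0691 to 0.0774). Its change of -1.37 ± 0.29 in Bleomycin against PBS was not called (limma adjusted p = 0.0683), but was called without Celastrol 2 (0.0232) or Celastrol 3 (0.0438).

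Fibroblast RNA moved with these targets. The 8 fibroblast genes made up 0.157%, 0.316% and 0.120% of all values in Celastrol, 0.466%, 0.142% and 0.146% in Bleomycin, and 3.27% and 1.50% in PBS. The collagen genes Col1a1, Col1a2 and Col3a1 made up 89.0% and 73.2% of this sum in PBS 2 and PBS 3, and the other 5 genes made up 0.0596% to 0.166% of all values in Celastrol, 0.0745% to 0.129% in Bleomycin, and 0.362% and 0.402% in PBS. The median log2 change of the list was 0.02 in Celastrol against Bleomycin, -2.08 in Celastrol against PBS and -2.19 in Bleomycin against PBS. Limma called 7 of 8 lower in Celastrol against PBS, among them the dermal matrix gene Dpt (-2.09 ± 0.32, adjusted p = 0.0131) and the transcription factor gene Prrx1 (-1.30 ± 0.23, adjusted p = 0.0268). In Bleomycin against PBS it called 6 of 8 lower, with Dpt at -1.94 ± 0.32 (adjusted p = 0.0274). Of all genes, limma called 1.37% and 0.677% in these comparisons, in either direction. Of the 7, 0 remained called without Celastrol 2, Celastrol 5, PBS 2 or PBS 3, and 5 without Bleomycin 3 or Bleomycin 4. Of the 6, 0 remained called without Bleomycin 3, Bleomycin 4, PBS 2 or PBS 3, 3 without Celastrol 2 and 4 without Celastrol 5. Limma called 0 of the 8 in Celastrol against Bleomycin, with 0 at an unadjusted p under 0.05. The part of the fibroblast genes in the changes of Igfbp3, Ccdc80 and Fat4 was not tested.

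In the other marker lists few genes were called. Limma called 0 of 8 basal keratinocyte genes in each comparison, with 0, 2 and 1 at an unadjusted p under 0.05. Of 6 suprabasal genes it called Flg, the filaggrin gene, higher in Celastrol against PBS (2.40 ± 0.25, adjusted p = 0.00379) and in Bleomycin against PBS (1.81 ± 0.25, adjusted p = 0.0144). The first call stayed without each library, and the second was lost without Bleomycin 3, Bleomycin 4 or PBS 3 (adjusted p 0.0563 to 0.0895). Of 7 endothelial genes it called Tek, a receptor kinase gene, lower in Celastrol against PBS (-1.27 ± 0.23, adjusted p = 0.0285), and of 7 smooth muscle and pericyte genes it called Rgs5 higher there (0.74 ± 0.15, adjusted p = 0.0466). The call of Tek was lost without Celastrol 2, Celastrol 5, Bleomycin 4, PBS 2 or PBS 3 (adjusted p 0.0637 to 0.190), and that of Rgs5 without any library other than Bleomycin 2 (adjusted p 0.0675 to 0.279).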

How the data were processed

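Gene expression was measured by RNA-seq of total RNA from skin in 8 libraries. The deposited table holds a normalised signal per gene on a linear scale, made by the authors by scaling estimated gene counts with DESeq2 (poscounts), per the file headers. The submitters' processing notes list Partek 10.0.22, STAR 2.7.3a and mm10; settings, annotation and use of strand are not given in the sources used here. Of the low values checked in each library, only 67.6% to 74.6% lay within 0.05 of a whole read. Counts were therefore not recovered and count models were not used.

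Values plus a pseudocount of 1 were taken to log2 and fitted with limma 3.58.1 in R 4.3.3 (lmFit, eBayes with trend) over all 8 libraries without covariates. The tests covered genes that reached 10 in 2 or more libraries (23185 kept, 1427 removed) and were two-sided, with Benjamini-Hochberg adjustment. The fit was tested on simulated data. Lengths and GC content came from GENCODE M21, and promoters from RefSeq.

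The members and lists were chosen with earlier results of these data known. Named genes were all members, Ccn1 and Ccn2, list genes that were called or had among the 3 smallest p per list and comparison (a selection of these is given), and the 5 nearest genes of the 3 most variable members, with a mean of at least 50 and no Gm or Rik symbol. Alternatives were other pseudocounts, no filter, TMM scaling, library weights, a replicate block, the compared groups alone, each library left out and, added after the data had been seen, a GC correction. Every group had 2 or 3 libraries, so single libraries weigh heavily.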

Additional observations from a re-analysis of the deposited data

How the results depend on the processing

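Over the log2 changes of the 10 members in 3 comparisons, 434 of the recomputed values kept direction and side of the threshold. Of the rest, 36 turned direction, 8 lost a call and 2 gained one, and the cause of these changes was not tested. Removing the filter, fitting the compared groups alone or leaving out a library of the group not compared leaves a log2 change as it was. Such values could not turn direction, so the 434 overstates how often a direction was put to the test. With 2 or 3 libraries per group, the direction of a member's change that turned is not settled. Where 1 PBS library is left out, the lone PBS library is assumed to vary like the other groups. The GC correction was chosen after seeing the data.

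Ankrd1 in Bleomycin against PBS had a log2 change of 3.31 to 3.94 over the alternatives other than leaving out a library, and its limma adjusted p ran from 0.00348 with library weights to 0.146 with the replicate block. In Celastrol against PBS Ankrd1 was called with library weights (3.44, limma adjusted p = 0.0318) and after the GC correction (3.14, limma adjusted p = 0.0339), so 1 member was called there under each, and it was not called under the others (adjusted p 0.0503 to 0.322, with 0.212 for the 2 groups alone and 0.217 for the replicate block). In Bleomycin against PBS 0 members were called with a pseudocount of 0.1 and with the 2 groups compared alone. Genes called by limma numbered 159 in Celastrol against PBS with those groups alone and 539 after the GC correction, and in Bleomycin against PBS 46 with those groups alone, 711 with library weights and 297 after the GC correction.

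The main fit did not pair libraries by replicate number. The deviations of same-numbered libraries correlated at -0.00485 to 0.203, with the highest value for Bleomycin 2 and PBS 2. Differently numbered libraries were not correlated for reference, so whether the number marks a batch was not tested. Celastrol 5 and Bleomycin 4 share their numbers with no other library, so the block takes them out of the comparisons. With the replicate block, limma called 41 genes in Celastrol against PBS and 17 genes and 0 members in Bleomycin against PBS. The block turned Ccn2 to 0.040 in Celastrol against Bleomycin, and Tead3 to 0.034, Tead4 to 0.19 and Lats2 to 0.015 in Bleomycin against PBS.

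Library weights turned 8 values. In Celastrol against Bleomycin these were Tead4 to 0.073, Lats1 to 0.0091, Lats2 to 0.13 and Vgll2 to -0.39, in Celastrol against PBS Ccn1 to 0.075, and in Bleomycin against PBS Tead1 to -0.036, Tead2 to 0.21 and Vgll2 to 0.45. The GC correction turned Tead3 to 0.026 and Vgll4 to 0.045 in Celastrol against PBS, and Tead3 to 0.029 and Tead4 to 0.064 in Bleomycin against PBS. A pseudocount of 10 turned Vgll2 to 0.054 in Bleomycin against PBS.

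Leaving out each library in turn gave 0 to 1 genes called in Celastrol against Bleomycin, 38 to 418 in Celastrol against PBS, and 16 to 229 in Bleomycin against PBS, where 0 to 1 members were called. Some log2 changes turned direction. In Celastrol against Bleomycin the ranges were -0.14 to 0.064 for Wwtr1, -0.60 to 0.097 for Tead4, -0.23 to 0.17 for Lats2, -0.38 to 0.11 for Ccn2, -0.37 to 0.025 for Tead3, -0.016 to 0.25 for Yap1, -0.068 to 0.048 for Lats1, -0.78 to 2.00 for Vgll2, and -0.20 to 0.23 for the ratio of Lats2 to Lats1. In Celastrol against PBS they were -0.66 to 0.55 for Ccn1, -0.67 to 0.019 for Tead4, -0.085 to 0.59 for Ccn2, -0.38 to 0.012 for Vgll4, -0.50 to 0.050 for Wwtr1, -0.36 to 2.11 for Tead2, -0.35 to 0.37 for the ratio of Wwtr1 to Yap1, and -0.28 to 0.071 for that of Lats2 to Lats1. In Bleomycin against PBS they were -0.050 to 0.089 for Tead1, -1.49 to 0.98 for Tead2, -0.44 to 0.19 for Tead4, -0.73 to 0.18 for Amotl2, -1.68 to 1.10 for Vgll2, -0.40 to 0.17 for Tead3, -0.34 to 0.015 for Lats2, -0.45 to 0.099 for Wwtr1, -0.31 to 0.033 for Stk38, -0.20 to 0.52 for the ratio of Wwtr1 to Yap1, and -0.32 to 0.060 for that of Lats2 to Lats1.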
